A study of Mus musculus with 9 samples.

Results

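The Bcl2 family decides whether a stressed cell keeps its mitochondria sealed or lets them leak, and 10 of its genes were examined here in the skin of mice that lack Cd1d and of wild-type mice. They are the survival genes Bcl2, Bcl2l1, Bcl2l2 and Mcl1, the pore-forming effectors Bax and Bak1, and the death-promoting genes Bad, Bid, Bcl2l11 and Bnip3. Every probe set that the platform annotation gives to 1 of these genes was taken. This gave 15 probe sets for 9 of the 10 genes, out of 12422 probe sets for 8251 genes on the array. No probe set carries the name Bax in the annotation used, so Bax was not analysed here. The question was how the transcripts of survival and of death members stand in skin without CD1d before any ultraviolet light, in a study of CD1d in skin survival and inflammation after such light.

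Skin came from 5 CD1d knockout mice (Cd1d -/-) and 4 wild-type mice (Cd1d +/+), all on the C57BL/6 background, not irradiated, and described as matched in age and sex. The age itself, the sex and the design of the knockout allele are not given in the sources used here. Each mouse gave its own RNA and its own Affymetrix MG-U74 array, and differences between arrays therefore include those between animals. Signals are Microarray Suite 5.0 (MAS5) values in arbitrary units, and differences are given on the log2 scale as knockout minus wild type. Whole skin was used, and in whole tissue fewer cells of a type cannot be told apart from less RNA per cell.

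The proteins of this family meet at the outer mitochondrial membrane. BCL-2, BCL-XL (from Bcl2l1), BCL-W (from Bcl2l2) and MCL-1 hold back BAX and BAK, which otherwise open the membrane and release cytochrome c. BH3-only proteins such as BIM (from Bcl2l11), BID and BAD carry death signals by binding those survival proteins or, for some of them, the effectors directly. In skin this system governs the removal of keratinocytes damaged by ultraviolet light and the regression of hair follicles. BNIP3 is an atypical relative that sits in the same membrane, is induced by low oxygen through the HIF factors and acts in the removal of mitochondria. Much of the control of this family lies in protein binding, phosphorylation and turnover, which arrays of transcripts do not read.

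The promoter of Bnip3 is shown because this gene varied most between the mice among the kept probe sets of the family. It is the stretch of 250 bases before the annotated start, at chr7:138909507-138909756 on the minus strand of GRCm38.p6, from RefSeq. Capitals mark the core of the HIF binding element, searched as ACGTG and GCGTG on both strands.
Bnip3: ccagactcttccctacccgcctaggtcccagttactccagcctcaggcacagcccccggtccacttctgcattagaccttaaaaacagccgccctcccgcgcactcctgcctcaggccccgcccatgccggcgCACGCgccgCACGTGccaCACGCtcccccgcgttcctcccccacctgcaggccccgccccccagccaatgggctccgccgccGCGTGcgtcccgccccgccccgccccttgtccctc
It holds 5 matches, of which 2 overlap because CACGTG reads the same on either strand. At least 1 match stood in 38.6% of the 32851 promoter stretches of that length in the table, and at least as many as in Bnip3 in 1.0% of them. Of the 14 stretches listed for the 10 genes, 6 held a match, among them the stretches with most matches after Bnip3, at Bad and Bcl2l11 with 3 each. The member stretches had a median GC content of 64% (range 47.6% to 74.8%), against 52.4% for all promoters in the table. The Bnip3 stretch had 72.4%, and the shares of promoters above were not matched for GC content. A match describes letters and shows no binding.

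The arrays were alike in their correlations, though not in every control. Correlations between pairs of arrays over the kept probe sets ran from 0.892 to 0.968. Ratios of 3′ to 5′ control probe sets lay between 0.861 and 1.03 for Gapdh. For actin they leaned by genotype, at 1.11 to 1.21 in wild-type arrays and 1.005 to 1.05 in knockout arrays other than knockout 4, which had 1.14. The part of this lean in the family's signals was not tested. The keratinocyte gene Krt10 read 5946.7 to 8270.2 across the 9 arrays and the collagen gene Col1a1 of the dermis 2543.4 to 5899.1, so markers of both skin layers were present on every array. The Cd1d1 transcript averaged 60.3 ± 12.7 in knockout skin (SD, n = 5) and 109 ± 16.7 in wild-type skin (SD, n = 4). That is -0.86 in log2 signal (exact permutation p = 0.0159, limma adjusted p = 0.242). Where its probes lie relative to the deleted part is unknown. Hair follicle markers differed widely between mice, with list medians of -1.79 to 2.81 in the knockout arrays and -1.35 to -0.0036 in the wild-type arrays. All 15 measured hair follicle genes had higher mean log2 signals in the knockout (median difference 1.52), with 6 at an unadjusted p under 0.05 and 0 past limma's test. All 14 measured macrophage and dendritic cell genes had lower mean log2 signals in the knockout (median difference -0.31), with 7 at an unadjusted p under 0.05 and 0 past limma's test. All 4 measured red-cell genes had lower mean log2 signals in the knockout, and 2 of them passed limma's test. Over all kept probe sets the test passed 0.0522%, and 9.4% had an unadjusted p under 0.05. The part of these cell types in the family's signals was not tested, apart from a fit that adjusts for the hair follicle median.

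None of the family's transcripts was shown to differ between the genotypes. A probe set was tested where its signal reached the 40th percentile of its array, a signal of 43.4 to 53.3, in at least 4 of the 9 arrays. This kept 12 of the 15 probe sets and all 9 genes. Of these 12, 0 passed limma at an adjusted p under 0.05, and 0 had an unadjusted p under 0.05. The unequal-variance test passed 0 of all 7658 kept probe sets after adjustment, so its count of 0 among the members says nothing about them. Over all 7658 kept probe sets limma called 4, which is 0.0522%, and 720 had an unadjusted p under 0.05, which is 9.4%. The genotypes overlapped in every one of the 15 probe sets, while they did not overlap in 3.21% of all kept probe sets. With so few probe sets, counts of 0 lie near these background shares. The log2 difference was below 0 in 9 of the 12 and above 0 in 3, with a median of -0.083, and below 0 in 48.8% of all kept probe sets, whose median was 0.0071. The size of a difference that these 9 mice leave possible is given by the intervals below.

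**Figure D1:**
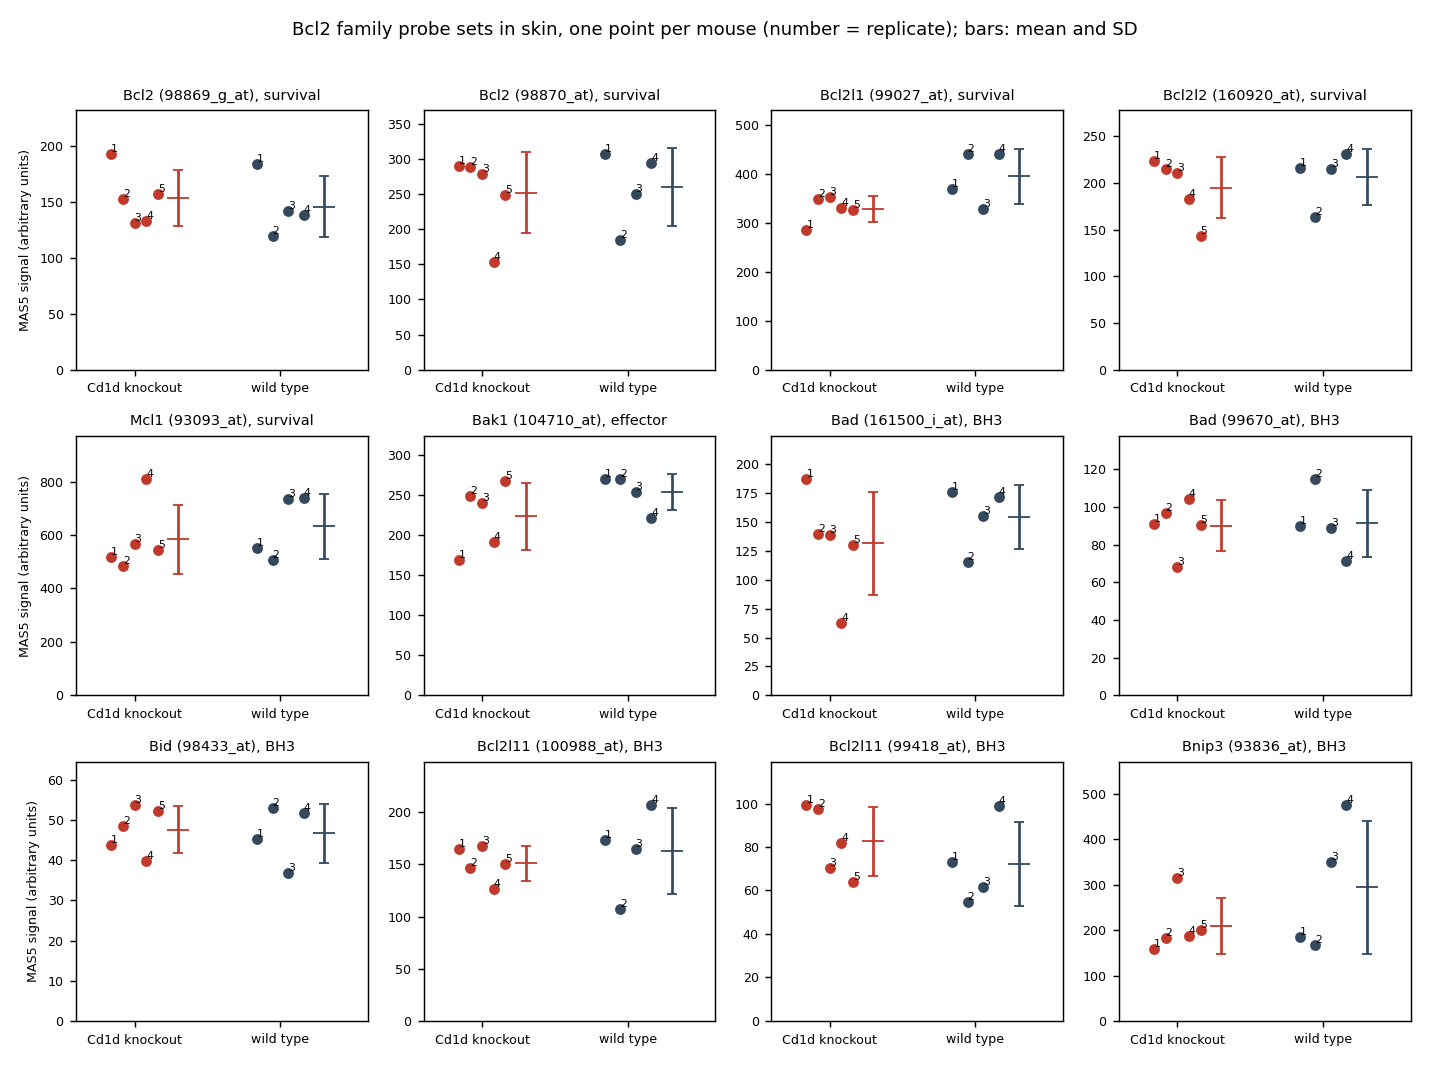
MAS5 signal (arbitrary units, vertical axes starting at 0) of the 12 kept probe sets, with a point for each mouse numbered by replicate, Cd1d knockout left and wild type right, and the mean with its SD beside the points. The points of the genotypes overlap in every panel, and Bnip3 shows 3 high mice, knockout 3 and wild type 3 and 4.

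Among the survival genes, Bcl2l1 came closest to a difference. Its bright probe set read 285.8, 348.0, 351.7, 331.0 and 326.2 in knockout mice 1 to 5, against 368.9, 440.0, 327.6 and 441.0 in wild-type mice 1 to 4. Only wild type 3 lay among the knockout values, and knockout 1 was the lowest of all. The means were 329 ± 26.2 in knockout skin (SD, n = 5) and 394 ± 55.9 in wild-type skin (SD, n = 4). This is a log2 difference of -0.26 (SE 0.13, 95% interval -0.54 to 0.031) and puts the knockout at 83.7% of the wild-type level with an interval of 68.6% to 102%. Limma gave an adjusted p = 0.576 and the exact two-sided permutation test p = 0.0556, before any allowance for the 15 probe sets compared. Of the 15 this was the smallest p, and the smallest the design can give is 0.00794. The log2 difference was negative in all 24 alternatives, from -0.34 to -0.13, and its smallest adjusted p under them was 0.456. Some alternatives, such as other filters or the unequal-variance test, cannot change this estimate, and all reuse the same mice. The constant sign is therefore weak evidence.

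A second Bcl2l1 probe set was below the filter signal on every array. It read 21.6, 21.3, 28.3, 3.1 and 3.9 in knockout mice 1 to 5, against 4.3, 1.7, 8.7 and 4.9 in wild-type mice 1 to 4. Knockout 1, 2 and 3 stood above the rest, opposite in direction to the bright probe set. MAS5 signals this low carry a large relative error, and without detection calls their distance from background cannot be given. Fitted without any filter, its log2 difference was 1.38 (95% interval -0.28 to 3.04, limma adjusted p = 0.659).

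Bcl2 itself, the founding survival gene, was read by 2 kept probe sets that gave nearly the same level in each genotype. The brighter read 290.3, 288.5, 278.6, 153.8 and 248.8 in knockout mice 1 to 5, against 307.7, 185.0, 250.8 and 295.0 in wild-type mice 1 to 4. Each genotype had 1 mouse well below its others, knockout 4 and wild type 2. The means were 252 ± 57.4 in knockout skin (n = 5) and 260 ± 55.4 in wild-type skin (n = 4), and the log2 difference was -0.053 (SE 0.22, 95% interval -0.53 to 0.42, limma adjusted p = 0.963). The other kept probe set averaged 153 ± 24.9 in the knockout, against 146 ± 27.3 in the wild type, with a log2 difference of 0.077 (95% interval -0.29 to 0.44, limma adjusted p = 0.919). The signs are opposite and each interval holds 0. The remaining Bcl2 probe set, dim on every array, averaged 26.3 ± 2.80 in knockout and 28.1 ± 12.6 in wild-type skin.

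Bcl2l2, which protects cells much as Bcl2 does, read 223.5, 214.8, 211.0, 183.0 and 142.8 in knockout mice 1 to 5, against 216.6, 163.4, 215.4 and 231.5 in wild-type mice 1 to 4. Knockout 5 was the lowest and the remaining mice of the genotypes were interleaved. The genotypes differed by -0.090 on the log2 scale (SE 0.17, 95% interval -0.45 to 0.27, limma adjusted p = 0.897).

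Mcl1, a short-lived survival protein needed by many cell types, had signals of 516.5, 482.6, 567.4, 808.9 and 544.9 in knockout mice 1 to 5, against 550.4, 506.7, 733.7 and 737.2 in wild-type mice 1 to 4. Knockout 4, wild type 3 and wild type 4 were high and the other 6 mice lay close together, so high values occurred in both genotypes. Knockout minus wild type came to -0.12 in log2 signal (SE 0.18, 95% interval -0.51 to 0.27, limma adjusted p = 0.864). With 1 array left out it ran from -0.24 (without knockout 4) to -0.038 (without wild type 4), and it was -0.040 without wild type 3. Of the 3 mice with high Mcl1, knockout 4 had the highest median of the 8 measured keratinocyte markers on any array, 0.51 on the centred log2 scale, wild type 3 the lowest, -0.20, and wild type 4 lay at 0.046.

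Bak1, the only effector read among the 10 genes, had signals of 168.5, 248.8, 239.9, 191.7 and 267.8 in knockout mice 1 to 5, against 269.5, 269.3, 254.0 and 221.3 in wild-type mice 1 to 4. The lowest values belonged to knockout 1 and knockout 4, and knockout 5 lay beside the highest wild-type mice. The means were 223 ± 41.6 in knockout skin (n = 5) and 254 ± 22.7 in wild-type skin (n = 4). In log2 signal the knockout differed by -0.20 (SE 0.16, 95% interval -0.54 to 0.15, limma adjusted p = 0.730). This difference kept its sign in all 24 alternatives, from -0.29 to -0.10, though here too some of them cannot change the estimate.

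**Figure D2:**
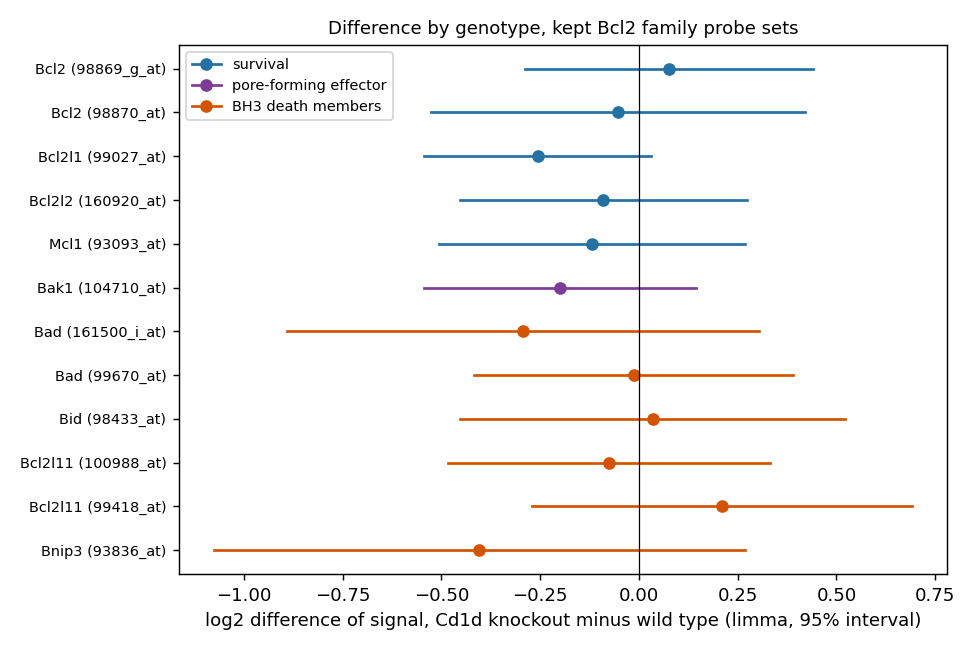
Log2 difference of signal, Cd1d knockout minus wild type, for the 12 kept probe sets, with limma's 95% intervals, coloured by role. Every interval includes 0, and the widest is that of Bnip3, from -1.08 to 0.27.

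Of the BH3-only genes, Bad was read by 2 kept probe sets that did not move together. The brighter read 187.2, 139.4, 139.0, 63.0 and 130.3 in knockout mice 1 to 5, against 176.2, 115.6, 154.9 and 171.4 in wild-type mice 1 to 4. Knockout 4 was far below all others, and wild type 2 was the lowest of its genotype. Its log2 difference was -0.29 (SE 0.27, 95% interval -0.89 to 0.30, limma adjusted p = 0.782), and without knockout 4 it was -0.049. The dimmer probe set read 91.1, 96.7, 68.4, 104.2 and 90.3 in knockout mice 1 to 5, against 89.9, 114.8, 89.1 and 71.6 in wild-type mice 1 to 4. Here knockout 4 and wild type 2 were the highest of their genotypes, the reverse of the brighter probe set. Its log2 difference was -0.013 (95% interval -0.42 to 0.39, limma adjusted p = 0.991). BAD protein is switched off by phosphorylation, a step these signals do not show.

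Bcl2l11 encodes BIM, a BH3-only protein that can bind all the survival members, and its 2 kept probe sets had opposite signs. The brighter averaged 151 ± 16.7 in knockout skin (n = 5) and 163 ± 41.5 in wild-type skin (n = 4). Its log2 signals, centred on the 9 arrays, were 0.096, -0.070, 0.13, -0.29 and -0.030 in knockout mice 1 to 5, against 0.17, -0.52, 0.095 and 0.43 in wild-type mice 1 to 4. The wild-type mice held both extremes, wild type 2 at the bottom and wild type 4 at the top. On the log2 scale the difference was -0.076 (SE 0.19, 95% interval -0.48 to 0.33, limma adjusted p = 0.929). The other kept probe set averaged 82.6 ± 15.8 in knockout skin and 72.1 ± 19.5 in wild-type skin, which is 0.21 in log2 signal (95% interval -0.27 to 0.69, limma adjusted p = 0.799). The remaining Bcl2l11 probe set lay below the filter signal on every array, at 3.4 to 17.2 in the knockout and 3.3 to 24.1 in the wild type.

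Bid, which links death receptors to mitochondria once caspase-8 has cut it, was the dimmest kept member and reached the filter signal on only 4 arrays. It read 43.7, 48.6, 53.8, 39.8 and 52.2 in knockout mice 1 to 5, against 45.3, 53.0, 36.7 and 51.7 in wild-type mice 1 to 4. The genotypes were interleaved over this narrow range. Knockout minus wild type was 0.035 in log2 signal (SE 0.22, 95% interval -0.45 to 0.52, limma adjusted p = 0.981).

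Bnip3, whose promoter is shown above, had the widest spread of the kept members. It read 158.1, 182.3, 315.8, 187.3 and 200.3 in knockout mice 1 to 5, against 185.6, 166.8, 349.9 and 476.3 in wild-type mice 1 to 4. Knockout 3, wild type 3 and wild type 4 stood apart from the other 6 mice, which lay between 158.1 and 200.3 whatever their genotype. The highest signal was 3.01 times the lowest, and 90.9% of all kept probe sets had a smaller spread within genotypes. The means were 209 ± 61.8 in knockout skin (n = 5) and 295 ± 146 in wild-type skin (n = 4). Their log2 difference was -0.40 (SE 0.31, 95% interval -1.08 to 0.27, limma adjusted p = 0.721). It was -0.13 without wild type 4, -0.28 without wild type 3, -0.56 without knockout 3, -0.58 without wild type 1 and -0.63 without wild type 2. Arrays whose deposited values have 7 decimals, knockout 1 and 2 and wild type 2 to 4, gave -0.84, and arrays with 9 decimals, the remaining 3 knockout mice and wild type 1, gave 0.30, so the sign did not hold across these possible batches.

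The 3 mice with high Bnip3 were also the 3 with the lowest fibroblast median. The fibroblast list was 1 of several cell-type marker lists, and it was singled out with the values in view. The median of the 7 fibroblast genes, centred on the 9 arrays, was -0.46 in knockout 3, -0.44 in wild type 3 and -0.63 in wild type 4, against 0.12 to 0.43 in the other 6 mice. The collagen gene Col1a1 read 2543.4 in knockout 3, 2555.5 in wild type 3 and 2679.4 in wild type 4, and between 4198 and 5899.1 in the others. Not every marker followed, since Dcn, the proteoglycan decorin, read 7505.5, 8132.7 and 8074.4 in those 3 mice and 5591.9 to 8579.6 in the others. Pdgfra read 381, 466 and 341.5 in those 3 mice, which overlaps the 394.7 to 1107.7 of the others. The remaining markers of the list were lowest in those 3 mice. The gene with the pattern most like that of Bnip3 was Lox, which cross-links collagen, with a Pearson r of 0.954 over the 9 arrays, the highest of 6907 probe sets compared. Lox read 115.8, 156.2 and 219.4 in the same 3 mice and 63.6 to 92.1 in the others. The same search gave r of 0.915 to 0.988 for the 9 measured members, so a value of this size set Bnip3 apart from none of them. The part of fibroblast content in the Bnip3 signal was not tested. The median of the 16 measured hypoxia genes did not separate these mice. It was 0.13 in knockout 3, -0.10 in wild type 3 and -0.055 in wild type 4, against -0.14 to 0.089 in the others. A median can hide single genes, whose values by mouse are not given here.

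**Figure D3:**
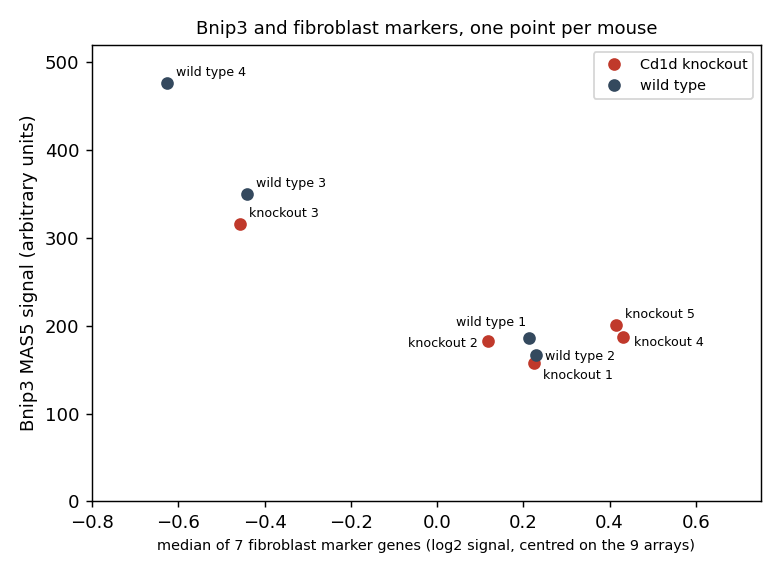
Bnip3 MAS5 signal (arbitrary units, vertical axis starting at 0) against the median of 7 fibroblast marker genes (log2 signal centred on the 9 arrays), with a point for each mouse. Knockout 3, wild type 3 and wild type 4 lie at the upper left, with Bnip3 at 315.8 to 476.3, and the other 6 mice at the lower right, with 158.1 to 200.3.

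The balance of survival and death members did not separate the genotypes. For each mouse it was the mean of the 4 survival genes minus the mean of the 5 measured death genes, each gene read by its brightest kept probe set and centred on the 9 arrays, since levels of different probe sets cannot be compared. It was 0.080, 0.044, -0.13, 0.33 and -0.19 in knockout mice 1 to 5, against 0.016, 0.010, -0.052 and -0.10 in wild-type mice 1 to 4. The knockout mice held the extremes at both ends, with knockout 4 most towards survival and knockout 5 most towards death. The means were 0.026 ± 0.20 in the knockout (SD, n = 5) and -0.032 ± 0.056 in the wild type (SD, n = 4). Their difference of 0.058 was smaller than the pooled spread within genotypes of 0.16. That is the spread of single mice, and it does not measure the error of the difference. No p is given for a score over chosen genes. The survival genes averaged -0.058 ± 0.090 in the knockout and 0.072 ± 0.18 in the wild type, and the death genes -0.083 ± 0.23 in the knockout and 0.10 ± 0.22 in the wild type, so each side was slightly lower in the knockout within its spread.

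**Figure D4:**
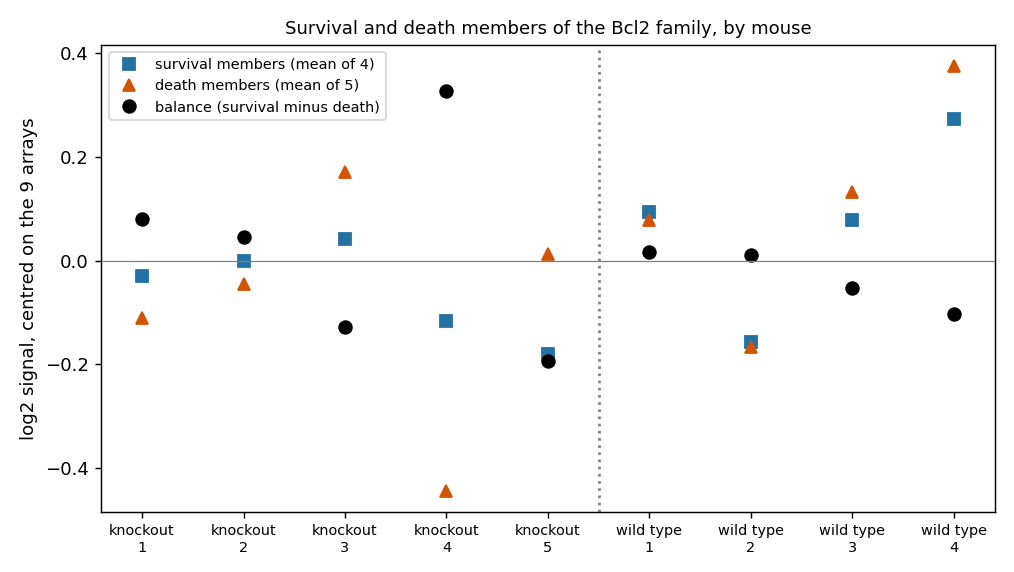
Mean of the survival members, mean of the death members and their difference, the balance, for each mouse, in log2 signal centred on the 9 arrays, with the knockout mice left of the dotted line and the wild-type mice right of it. The balance runs from -0.19 to 0.33 in the knockout and from -0.10 to 0.016 in the wild type.

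The difference in balance between genotypes depended in part on which mice, genes and probe sets were used. Without knockout 4 the difference between genotypes was -0.017, and without Bnip3 among the death genes it was 0.0042. Within the 7-decimal arrays it was 0.11 and within the 9-decimal arrays -0.014 (with a single wild-type mouse). It was 0.22 when every probe set of a gene was averaged, the 3 dim ones included, and 0.14 in a fit adjusted for the hair follicle median. Only some pairs of a survival and a death gene were computed, none of them with Bid or Bnip3. Among these pairs the difference between genotypes ran from -0.18, for Bcl2l1 minus Bcl2l11, to 0.24, for Bcl2 minus Bad. The difference Bcl2 minus Bad averaged 0.11 ± 0.24 in the knockout and -0.13 ± 0.063 in the wild type, and the knockout mice held both its lowest and its highest value. The difference Bcl2l1 minus Bak1 averaged -0.025 ± 0.21 in the knockout and 0.031 ± 0.28 in the wild type.

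Some members of opposite role shared their low mice. On their brightest probe sets Bcl2 and Bad, a survival and a death gene, each had their lowest signal in knockout 4, and Bcl2l11 had its lowest in wild type 2. On the centred log2 scale knockout 4 stood at -0.70 for Bcl2, -1.11 for Bad and -0.29 for Bcl2l11, and wild type 2 at -0.43, -0.24 and -0.52 for the same genes. These are the arrays with the lowest median signal over all probe sets, 79.5 in knockout 4 and 72.6 in wild type 2 against 82.8 to 87.3 in the others, and the part of this in the low values was not tested. The other kept probe sets of these genes did not place knockout 4 lowest. They read 132.8 there for Bcl2, beside 131.3 in knockout 3, 104.2 for Bad and 81.9 for Bcl2l11. On them wild type 2 was lowest of all for Bcl2 (118.9) and Bcl2l11 (54.6) but highest for Bad (114.8). Other members did not follow. Mcl1 stood at 0.44 in knockout 4 and -0.23 in wild type 2. In wild type 2, Bcl2l1 stood at 0.31, Bak1 at 0.20 and Bid at 0.18, and in knockout 4 the same genes stood at -0.099, -0.29 and -0.23. Without both arrays, a setting chosen after seeing the data, again 0 member probe sets passed (smallest limma adjusted p = 0.398) and the balance differed by -0.0027.

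**Figure D5:**
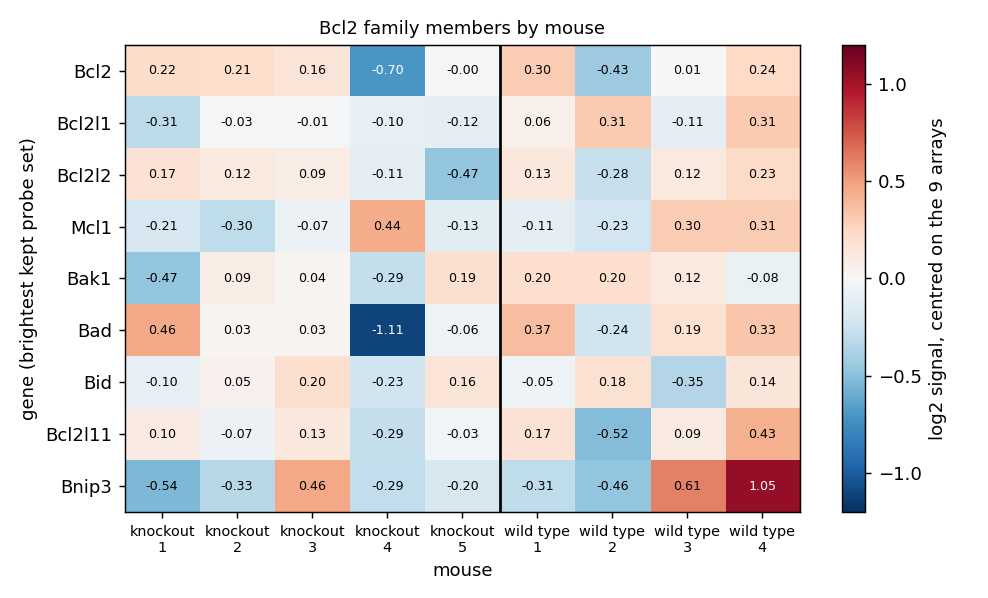
Centred log2 signal of the 9 measured genes (rows, brightest kept probe set) in each mouse (columns), knockout left and wild type right of the black line, with the value in each cell. The darkest blue cells are Bad and Bcl2 in knockout 4, at -1.11 and -0.70, and the darkest red cell is Bnip3 in wild type 4, at 1.05.

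Genes around the family gave no call either. Of 18 further listed genes, related to Bcl2 or named after it, 5 were measured. All 5 had lower means of log2 signal in the knockout, beside 48.8% of all kept probe sets. Of the 5, 0 passed limma's test (smallest adjusted p = 0.576, 0 with an unadjusted p under 0.05, list median -0.24). Bok, an effector related to BAX and BAK, averaged 489 ± 94.5 in knockout skin and 508 ± 49.9 in wild-type skin. Bnip1, a relative of Bnip3 by name that acts in membrane fusion, averaged 191 ± 9.26 in the knockout, against 227 ± 28.3 in the wild type (log2 -0.24, 95% interval -0.51 to 0.032). Bnip2 and Bcl2l13 had log2 differences of -0.24 and -0.066. Bcl2l10 had the largest, -0.30 (95% interval -1.45 to 0.85), on a probe set that read from 23.4 to 165.4.

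Downstream of the family, 14 of 18 listed genes of the mitochondrial death machinery were measured. Of these 6 were higher, 8 were lower and 0 passed limma's test (smallest adjusted p = 0.410, list median -0.028), while 3 had an unadjusted p under 0.05, against 9.4% of all kept probe sets. Slc25a5, which exchanges ADP and ATP across the inner membrane, averaged 609 ± 63.8 in the knockout, against 465 ± 58.8 in the wild type (log2 0.39, limma adjusted p = 0.410). Its probe set is of the type shared by related sequences, so close copies may add to it. Aifm1, a flavoprotein of the respiratory chain that can also move to the nucleus in dying cells, averaged 455 ± 93.6 in the knockout, against 324 ± 31.8 in the wild type (log2 0.47, limma adjusted p = 0.430). Ppif, the cyclophilin of the mitochondrial permeability pore, averaged 331 ± 79.5 in the knockout, against 227 ± 36.3 in the wild type (log2 0.52, limma adjusted p = 0.443).

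Upstream, 22 of 25 listed regulators of the family were measured, 13 higher and 9 lower, with 0 past limma's test, 0 with an unadjusted p under 0.05 and a list median of 0.024. They include kinases and 14-3-3 proteins that hold phosphorylated BAD in the cytosol. Sfn, the 14-3-3 protein of keratinocytes, averaged 2698 ± 480 in the knockout, against 2304 ± 523 in the wild type (log2 0.24, limma adjusted p = 0.702). Ywhah, another 14-3-3 protein, had a log2 difference of 0.22 and the stress kinase Mapk8 one of 0.23. In the hypoxia list, which bears on Bnip3, 8 genes were higher, 8 lower and 0 passed limma's test, with 0 at an unadjusted p under 0.05 (list median 0.037). Hk2, a hexokinase of glycolysis, averaged 504 ± 62.7 in the knockout, against 409 ± 79.8 in the wild type (log2 0.31, limma adjusted p = 0.576). Hif1a, the oxygen-regulated subunit itself, averaged 1423 ± 122 in the knockout, against 1245 ± 62.6 in the wild type (log2 0.19, limma adjusted p = 0.597). Its probe set, like that of Slc25a5, is of the type shared by related sequences. Pgk1, another glycolytic enzyme, averaged 1069 ± 103 in the knockout, against 1320.4 ± 345 in the wild type (log2 -0.27, limma adjusted p = 0.645).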

How the data were processed

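RNA of 9 skins was measured on Affymetrix MG-U74 arrays, and the authors made signals with MAS5, per the labels. The scale of the deposited values is the natural log, as settled from their exponentials, which are whole multiples of 0.1 (to within 0.000597) and have a mean, trimmed by 2% at each end, of 200.11 to 200.133 in every array. Detection calls were not used here. Values were converted to log2 with no further normalisation. Of 12488 probe sets, 66 controls were left out, and 7658 passed the filter. Genes came from the platform annotation, where 10833 probe sets have 1 gene, 396 several and 1193 none; only those with 1 gene were named.

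Groups follow the sample titles. Differences were tested with limma 3.58.1 in R 4.3.3 (lmFit, eBayes with trend, two-sided, Benjamini-Hochberg over all kept probe sets), checked on simulated arrays, and single probe sets by an exact permutation test over 126 arrangements. The number of mice limits the precision. The members and gene lists were chosen with earlier results of these data known. Named were all members, Cd1d1, up to 3 genes per partner list with the smallest p, and the gene most like a member. Bcl2l10, Bok, Col1a1, Dcn, Krt10, Pdgfra and the fibroblast list were picked with their values in view. Alternatives were scalings, pseudocounts, filters, limma settings, blocks, covariates and omitted arrays.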

Additional observations from a re-analysis of the deposited data

Results flagged for a closer look

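Within a genotype, 32 sets of values were examined (15 probe sets and the balance, in each genotype) for an array far from the rest, and chance flags about 1 in 20 of them. Which ones stood out depended on the scale. On the scale of the signal there were 2. Mcl1 read 808.9 in knockout 4, where the other knockout mice read 482.6 to 567.4, and its gap to the nearest was 0.740 of the range. Bnip3 read 315.8 in knockout 3, where the other knockout mice read 158.1 to 200.3, with a gap of 0.732 of the range. On the log2 scale these gaps were 0.687 and 0.658, below the critical value of 0.71 for 5 arrays, and only 1 set stood out. This was the brighter probe set of Bcl2, which read 153.8 in knockout 4, where the other knockout mice read 248.8 to 290.3. Its gap was 0.757 on the log2 scale and 0.696 on that of the signal. For Mcl1 and Bnip3 wild-type mice had signals of the same size, 733.7 and 737.2 for Mcl1 and 349.9 and 476.3 for Bnip3, and for Bcl2 wild type 2 read 185.0.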

How the results depend on the processing

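No Bcl2 family probe set and no partner gene passed under any alternative run, with smallest adjusted p values of 0.378 for the family and 0.209 for the partner lists. The count over all kept probe sets, 4, became 9 with array weights, 7 with pseudocount 64, 0 with the unequal-variance test, 10 within the 7-decimal arrays, 0 within the 9-decimal arrays, 10 without knockout 4 and wild type 2 (added after seeing the data) and 4 to 8 with 1 array left out. It was 7 without knockout 2 or knockout 3 and 8 without knockout 4. With the replicate number as a block (replicate block) it was 1 and the family count stayed at 0. Same-numbered mice did not deviate together (correlations -0.046 to 0.11 over 4 numbers), and none of the 4 wild-type mice matched its own number best. The labels state no pairing by number, and these few correlations cannot exclude one.

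The balance, 0.058, ran from -0.017 to 0.11 with 1 array left out, and was 0.22 with every probe set averaged, which brings in the 3 dim ones. The comparison of Bcl2 with Bax alone could not be made. With the hair follicle covariate the balance was 0.14. That covariate moved Bad and Bcl2 furthest among the members, Bad from -0.29 to -0.58 and Bcl2 from -0.053 to -0.25, and neither passed. Signs of uncalled differences turned in places, and the cause was not tested. Within the 7-decimal arrays Bcl2 was 0.27, Bcl2l2 0.12, Bad 0.15, Bcl2l11 0.013 and Bid -0.013, and within the 9-decimal arrays Mcl1 was 0.19 and Bnip3 0.30. With 1 array left out, Bcl2 ran from -0.21 to 0.12, Bcl2l2 from -0.20 to 0.018, Bcl2l11 from -0.26 to 0.053 and Bid from -0.076 to 0.10. Bcl2l2 was 0.018 and Bid -0.00062 with the replicate block. Bid was also -0.010 with median centring and -0.015 with quantile normalisation, and Mcl1 was 0.021 with the hair follicle covariate. Bcl2l1 and Bak1 did not turn in any alternative run, though some runs cannot change an estimate and all reuse the same mice. Mcl1 ran from -0.24 to -0.038 with 1 array left out. The 9-decimal arrays have 1 wild-type mouse, assumed to vary like the others. MAS5 signals near the filter, such as Bid, have a large relative error.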
